A study of Mus musculus with 4 samples.

Results

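A small set of sorted neutrophils carried many transcripts of Camp, Ngp, Ltf, Chil3 and Fcnb, 5 genes whose products are stored in the granules of developing neutrophils. These cells, called granule-rich below, were chosen by those transcripts. A barcode of the tumor or the blood library was kept with at least 200 detected genes and at most 15% of its UMIs (counts of unique RNA molecules) from mitochondrial genes. A kept barcode was granule-rich with at least 3 UMIs summed over the 5 genes and at least 2 of the genes detected. This gave 99 granule-rich barcodes among 2481 kept, 20 of 947 in tumor and 79 of 1534 in blood. No hashtag call was required. The other 927 tumor and 1455 blood barcodes served for comparison, and the 5 genes were left out of every comparison.

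The cells came from 3 untreated FVB mice, an inbred strain, in which Py7160 cells, a mouse mammary tumor line, had been injected (1000000 cells in 100 µL). Tumors reached a diameter of about 1 cm after 2 to 3 weeks, and blood was taken from the same 3 animals, so every sample comes from a tumor-bearing mouse and none from a tumor-free one. Tumors were digested with enzymes and blood went through red-cell lysis. Neutrophils were enriched on Ly6G to about 90% and sorted as CD11b+ Ly6G+ to over 99% purity. Each mouse carried its own hashtag antibody, and all 3 of a tissue went into 1 Drop-seq library, so tissue, library and cell preparation cannot be told apart.

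Neutrophils make their granules in a fixed order while they mature in the bone marrow. Primary granules, with myeloperoxidase and elastase, are filled at the promyelocyte stage. Secondary or specific granules, with lactoferrin, cathelicidin and lipocalin 2, follow in myelocytes and metamyelocytes, and tertiary or gelatinase granules follow in band cells. The transcription factor C/EBP epsilon is needed for the secondary granule genes, whose transcripts are lost as the nucleus segments. Neutrophils released early from the marrow can therefore still hold such RNA in blood. Camp encodes the cathelicidin antimicrobial peptide, Ltf the iron-binding lactoferrin, Ngp a cystatin-like granule protein, Chil3 the chitinase-like protein Ym1 and Fcnb ficolin B, a lectin.

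Camp, Ngp and Ltf lie on chromosome 9, Chil3 on chromosome 3 and Fcnb on chromosome 2 (mm10, GENCODE M21). The bases just before the start of 4 of the genes are shown because these genes define the cells and because a C/EBP-like word can be looked up in them. The word searched was TTNNGCAA on both strands, and its matches are in capitals. All 5 genes matched the RefSeq promoter table (GRCm38.p6). Each stretch ends at the base before the annotated start and reads 5′ to 3′ along the gene's strand.
Camp, chr9:109849618-109849706, minus strand: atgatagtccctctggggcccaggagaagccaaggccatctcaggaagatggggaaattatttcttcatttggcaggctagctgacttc
Ngp, chr9:110419558-110419746, plus strand: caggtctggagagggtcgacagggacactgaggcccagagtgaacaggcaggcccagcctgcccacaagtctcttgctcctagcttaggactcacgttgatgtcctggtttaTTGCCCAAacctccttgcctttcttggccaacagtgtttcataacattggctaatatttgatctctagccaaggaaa
Ltf, chr9:111019042-111019270, plus strand: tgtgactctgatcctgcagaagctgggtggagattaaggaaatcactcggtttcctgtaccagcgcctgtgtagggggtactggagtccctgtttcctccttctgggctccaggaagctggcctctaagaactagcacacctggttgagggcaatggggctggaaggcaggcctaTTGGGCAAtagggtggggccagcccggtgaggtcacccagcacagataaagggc
Fcnb, chr2:28084886-28085128, minus strand: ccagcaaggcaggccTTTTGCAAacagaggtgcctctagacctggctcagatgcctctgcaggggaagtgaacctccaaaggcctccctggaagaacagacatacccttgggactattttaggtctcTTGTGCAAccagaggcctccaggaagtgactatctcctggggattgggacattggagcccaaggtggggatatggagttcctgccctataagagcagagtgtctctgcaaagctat
Ngp and Ltf each held 1 match and Fcnb held 2, while the Camp stretch and the 250 bases before Chil3 held none. Over 250 bases before the start, the word occurred in 3142 of 32851 promoter windows of the table, or 9.56%. Among windows of genes tested in blood (below) it occurred in 186 of 2091 (8.9%), among those of genes higher in granule-rich cells in 27 of 245 (11%) and among those of genes lower in 29 of 288 (10.1%). A match describes these letters and is no measured site.

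The 5 selecting genes are described here without a test, since they chose the cells. In the 20 tumor barcodes Ngp gave 1145 UMIs, Camp 962, Ltf 333, Chil3 77 and Fcnb 15. In the 79 blood barcodes Camp gave 3866, Ngp 3669, Ltf 1111, Chil3 210 and Fcnb 2. Ngp was detected in all 20 and all 79, Camp in 19 and 78, and Ltf in 12 and 59. Chil3 was found in 9 and 41 of them, and Fcnb in 2 tumor and 1 blood barcode, so Fcnb hardly contributed to the choice. The summed UMIs of the 5 genes had a median of 61 in tumor, with a lowest value of 3 and a highest of 487, and of 57 in blood, from 3 to 922. They reached up to 13.8% of a tumor and 14.2% of a blood barcode's UMIs. The other barcodes mostly had none, as 843 of 927 in tumor and 1276 of 1455 in blood showed 0 UMIs of the 5 genes.

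**Figure D1:**
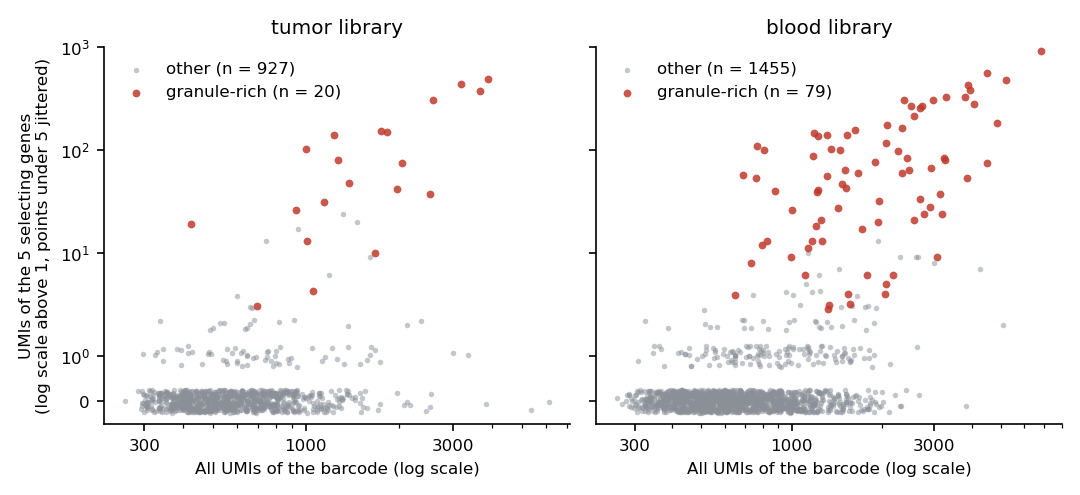
Summed UMIs of the 5 selecting genes (vertical axis, log scale above 1) against all UMIs of a barcode (horizontal log axis) in the tumor and blood libraries, 1 point per kept barcode. Granule-rich barcodes (20 and 79) lie at medians of 61 and 57 UMIs of the 5 genes and to the right of most other barcodes, with median depths of 1528 and 1908 UMIs against 572 and 640.

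Just inside the threshold, 1 tumor and 3 blood barcodes had 3 UMIs of the 5 genes. Just outside it, 6 tumor and 7 blood barcodes had 1 UMI each of 2 genes, and 9 tumor and 23 blood barcodes had 3 or more UMIs of a single gene. In 8 and 21 of these the gene was Ngp, and the highest had 24 and 13 UMIs.

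Granule-rich barcodes were deeper than the others. Their median was 1528 UMIs and 502 genes in tumor against 572 and 292, and 1908 UMIs and 630 genes in blood against 640 and 334. Outside the 5 genes, the granule-rich classes held 32689 UMIs in tumor and 161070 in blood, the other classes 620218 and 1101553. Mitochondrial transcripts made up a median of 1.46% and 3.76% of granule-rich UMIs against 3.06% and 5.83% in the others. The 2 RNA tables share 20 barcodes, none of which was kept. In both libraries a single kept barcode held nearly 1 UMI per gene and had no hashtag counts. In blood it had 645 UMIs over 643 genes, 1 of them S100a8, and counts as granule-rich with 4 UMIs of the 5 genes, whereas the next lowest blood barcode had 1.27 UMIs per gene. Without it the blood class has 78 members (5.09%), and it entered no fit over mice. RNA outside cells was read from barcodes with 20 to 60 UMIs, 5945 in tumor and 6739 in blood, where Camp stood at 202 and 637 CPM (UMIs per 1000000 of those outside the 5 genes), Ngp at 351 and 552 CPM and Ltf at 175 and 207 CPM. In the other kept barcodes Camp stood at 33.9 CPM in the tumor and 53.6 CPM in the blood library. These values are no comparison with free RNA, since the rule took barcodes with more selecting UMIs out of that class.

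Against the sort, 10 neutrophil markers, S100a8 and S100a9 among them, summed to 319129 CPM in granule-rich tumor and 334507 CPM in granule-rich blood barcodes, above the 66278 and 178229 CPM of the others. Most of these sums are S100a8 and S100a9, and the list is not uniform, since in the blood fit below 6 of its genes were higher, Csf3r and Cxcr2 lower, and Il1r2 and Trem1 did not pass. Of 15 monocyte or macrophage markers, 10 were at 0 in granule-rich blood barcodes, among them Ctss, and 276 of the list's 303 UMIs were Ly6c2, which early neutrophils also express. Summed per blood mouse, this list lay at 1688 to 2007 CPM in granule-rich and 704 to 866 CPM in other cells. The B cell list (9 genes) was at 0 in both granule-rich classes, and the 5 measured MHC class II and dendritic genes were at 0 in blood. Of 11 T or NK genes, 10 were at 0 in each granule-rich class, and Cd3d, a chain of the T cell receptor complex, gave 52 UMIs in blood and 7 in tumor. Cd3d stood at 214 CPM in granule-rich and 21 CPM in other tumor cells, and in blood it passed the fit over mice described below (log2 fold change 2.18, edgeR's adjusted p = 6.22e-06). In tumor, 50 of the 93 monocyte or macrophage UMIs were Ly6c2. There 1 barcode (member 15) held 27 of the 43 UMIs without Ly6c2 and 52 of 62 MHC class II UMIs. Hemoglobin and other erythroid transcripts (8 measured genes) came to 2595 CPM in granule-rich blood cells, 19261 CPM in other blood cells and 53685 CPM in the barcodes of 20 to 60 UMIs. The part of these in the results below was not tested.

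Granule-rich cells made up a smaller share of the tumor than of the blood library. They were 2.11% of kept tumor barcodes (exact 95% binomial interval 1.29 to 3.24, counting error only) and 5.15% of kept blood barcodes (4.1 to 6.38). By mouse, among barcodes assigned to a single hashtag, the shares were 1.49%, 0.412% and 1.41% in tumor and 6.28%, 4.98% and 2.89% in blood. The means were 1.1% ± 0.601 and 4.72% ± 1.71 (SD, n = 3). Every blood mouse lay above every tumor mouse, and a two-sided exact permutation test gave p = 0.1, the smallest that 3 against 3 allow. That test treats the 6 shares as independent, although the same 3 animals gave both tissues. Which hashtags mark the same animal is not given, and a paired test of 3 animals could not go below 0.25. With each barcode thinned to 440 UMIs, which left out 234 tumor and 280 blood barcodes, the shares were 2.18% and 5.1%. With at least 300 genes per barcode they were 4.17% and 7.59%, and with at least 100 genes 1.31% and 4.02%. Among assigned tumor barcodes alone the share was 0.877% without mouse 1 and 0.796% without mouse 3, from 4 and 3 granule-rich barcodes.

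Hashtag calls differed between the tissues. Of 77 granule-rich blood barcodes with hashtag counts, 61 were assigned to 1 mouse (79.2%), 14 carried several hashtags and 2 had no call, near the 82.6% assigned among other blood barcodes. In tumor 6 of 20 were assigned, 5 carried several hashtags and 9 had no call. The assigned share was 30% (interval 11.9 to 54.3) against 63.2% (60 to 66.3) of other tumor barcodes, and the 45% without a call (23.1 to 68.5) compares with 24% (21.3 to 26.9). Blood mice 1, 2 and 3 had 30, 20 and 11 granule-rich cells, while tumor mice had 2, 1 and 3. When a barcode was instead given to the hashtag with at least 70% of its hashtag counts, tumor mice 1, 2 and 3 had 1, 13 and 3 granule-rich cells, with shares of 0.943%, 2.3% and 1.75% against 6.46%, 5.7% and 3.43% in blood. The tumor counts by mouse thus rest on the hashtag rule, and at most 1 tumor mouse had 10 cells. A test over mice was therefore fitted in blood alone.

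In blood, granule-rich cells held more RNA of further genes listed as secondary granule genes and less of genes that rise in mature neutrophils. UMIs were summed by mouse and class and compared with edgeR's quasi-likelihood test with the mouse as a block. Of 2015 genes tested, 246 were higher (12.2%) and 267 lower (13.3%) in granule-rich cells at an adjusted p under 0.05. The mice of the 2 classes did not overlap for 972 genes (48.2%), and the median log2 fold change was −0.11. Since the cells were chosen on 5 linked genes, the fit describes what goes with those genes and is no independent evidence of a cell type. CPM values below use library totals, whereas fold changes use TMM scaling, which adds 0.30 on the log2 scale. S100a8 and S100a9 took 24.8% to 33.8% of granule-rich and 14.5% to 16.4% of other sums. With totals alone 167 genes were higher and 461 lower. Pooled over the whole blood library, without the hashtags and without a test, 421 of 4488 genes (9.38%) were at least 2-fold higher and 1216 (27.1%) lower. Without mouse 1, which had most granule-rich cells, 137 were higher and 132 lower, and without mouse 2, 171 were lower. All 505 and 507 called genes tested again in these fits kept their direction. Fewer mice were fitted, so lost power and dependence on 1 mouse cannot be told apart.

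Among listed secondary granule genes other than the 5, 20 of 24 tested were higher and none lower. Their median log2 fold change was 2.50 against −0.11 over all genes. That list, called secondary granule genes here, was chosen with earlier results of these data known. It also holds Syne1, Adpgk, Aldh2, Ltb4r1 and Ifitm6, so the count is not one of granule proteins alone. The summed list stood at 72952, 70835 and 67013 CPM in the granule-rich sums of mice 1, 2 and 3, and at 18012, 16764 and 17051 CPM in the other sums. Lcn2, the siderophore-binding lipocalin 2, had 10446, 10765 and 8456 CPM in granule-rich cells and 1062, 845 and 931 CPM in the others. Every granule-rich sum was above every other sum, with a log2 fold change of 3.69 ± 0.16 (SE, edgeR's adjusted p = 2.7e-103). Lyz2, a lysozyme that breaks bacterial walls, lay at 11408, 11869 and 8863 CPM against 1714, 1422 and 1288 CPM, and reads may be shared with its copy Lyz1, as within the Ly6, stefin and hemoglobin families. The groups were again separate (log2 fold change 3.16 ± 0.16, adjusted p = 5.52e-81). Ifitm6 reached 8640, 7653 and 10807 CPM against 664, 627 and 593 CPM, a log2 fold change of 4.13 ± 0.17.

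Anxa1, an annexin that limits inflammation, had 9349, 8832 and 7371 CPM in granule-rich cells and 2164, 2035 and 2070 CPM in the others. Mmp8, the neutrophil collagenase, had 2835, 2509 and 4386 CPM against 605, 421 and 458 CPM (log2 fold change 2.96 ± 0.17, edgeR's adjusted p = 5.98e-65). Both genes were higher without overlap. Serpinb1a, which inhibits the neutrophil's own serine proteases, changed most of all tested genes that rose. Its levels were 574, 703 and 317 CPM against 14.6, 7.25 and 7.28 CPM, a log2 fold change of 5.95 ± 0.49. Cd177, a surface glycoprotein of neutrophils, followed at 878, 677 and 497 CPM against 58.5, 25.4 and 29.1 CPM. The 4 genes of the list that did not pass were Dhrs7, Tcn2, Slpi and Hp, whose log2 fold changes were 0.58, 0.45, 0.27 and 0.14.

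The NADPH oxidase makes superoxide at the phagosome. Its catalytic subunit gene Cybb had 1181, 728 and 543 CPM in granule-rich cells and 38, 25.4 and 47.3 CPM in the others, a log2 fold change of 4.80 ± 0.35 (edgeR's adjusted p = 2.78e-40). Ncf1, a cytosolic organizer subunit, had 1114, 979 and 950 CPM against 225, 276 and 135 CPM (2.56 ± 0.22). Both were higher in every mouse without overlap. For Cyba, the partner of Cybb in the membrane, the classes overlapped at 1468, 1430 and 1040 CPM against 950, 1055 and 1153 CPM. Cybb and Cyba are also counted in the secondary granule list above. In all 5 of 7 oxidase genes were higher, but 2 were higher and 1 lower with library totals alone, so beyond Cybb and Ncf1 the list depends on the scaling. The calls were also fewer, with 2 higher, without mouse 1 or without mouse 2, where fewer mice were fitted.

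S100a8 and S100a9 encode the 2 chains of calprotectin, the most abundant cytosolic protein of neutrophils, and 4 of 5 tested S100 genes were higher (median log2 fold change 1.32). S100a8 took 154545, 186385 and 139091 CPM in granule-rich and 79302, 82875 and 73892 CPM in other sums (log2 fold change 1.32 ± 0.17, edgeR's adjusted p = 6.77e-13). Of 19 tested tertiary granule and late genes 7 were higher and 4 lower (2 lower without mouse 2), with a median of 0.03. Retnlg, a resistin-like secreted protein, had 33244, 21705 and 45625 CPM against 13491, 10471 and 10281 CPM (1.80 ± 0.16). Mmp9, gelatinase B, had 1367, 778 and 1583 CPM against 673, 559 and 477 CPM (1.37 ± 0.18). Both were higher, and their mice did not overlap. Fpr2, a receptor for bacterial formyl peptides, and Itgam, the CD11b chain of the sort, were higher by 1.99 and 1.14 on the log2 scale. Csf3r, Selplg, Cd33 and Stfa2l1 of the same list were lower. The sort marker Ly6g had 776, 1179 and 678 CPM in granule-rich cells and 246, 149 and 164 CPM in the others (2.52 ± 0.24).

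**Figure D2:**
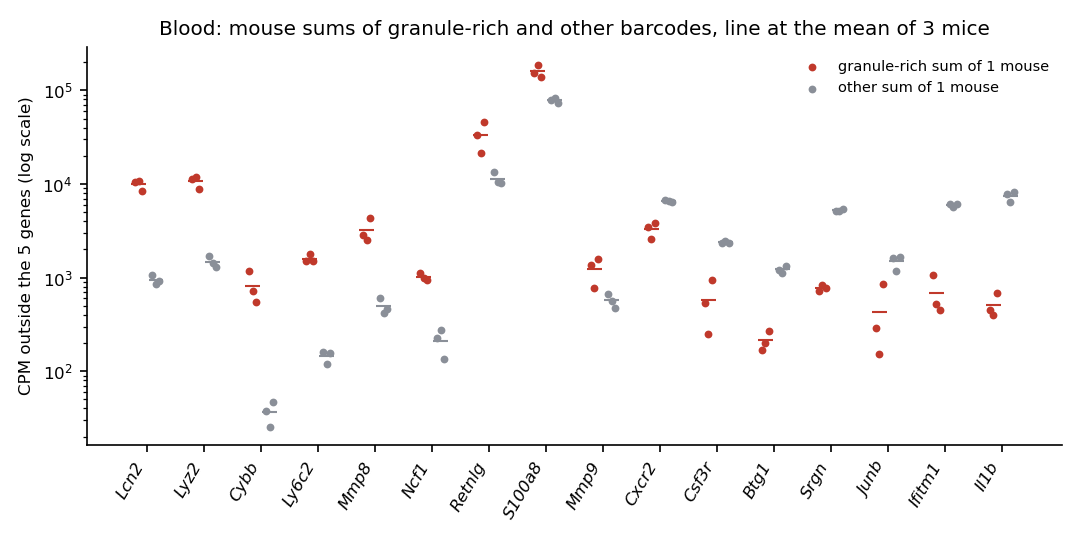
Level of 16 genes (CPM, log axis) in the blood sums of granule-rich (red) and other (grey) cells, 1 point per mouse and a line at the mean of 3. Lcn2 to Mmp9 are higher and Cxcr2 to Il1b lower in granule-rich sums, and for each of these genes the 3 red points lie apart from the 3 grey points.

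Genes that rise as neutrophils mature and leave the marrow were lower, 21 of 33 tested against none higher, with a median log2 fold change of −1.13. Il1b, the inflammatory cytokine interleukin 1 beta, had 456, 401 and 678 CPM in granule-rich cells and 7879, 6438 and 8277 CPM in the others. The mice were far apart, and the log2 fold change was −3.63 ± 0.20 (edgeR's adjusted p = 2.11e-67). Srgn, the proteoglycan serglycin, which packs granule contents, had 726, 828 and 769 CPM against 5100, 5147 and 5406 CPM (−2.44 ± 0.19). Csf3r, the receptor for the growth factor G-CSF and a member of this list as of the tertiary one, had 540, 251 and 950 CPM against 2351, 2448 and 2328 CPM (−1.86 ± 0.20). Btg1, which restrains proliferation, had 169, 201 and 271 CPM against 1220, 1117 and 1328 CPM. In all 4 genes every granule-rich sum was below every other sum.

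Cxcr2, the chemokine receptor that draws neutrophils out of the marrow, was lower but still abundant, at 3510, 2610 and 3844 CPM against 6732, 6648 and 6381 CPM (log2 fold change −0.71 ± 0.16, edgeR's adjusted p = 6.65e-05). The fold was smaller than for Fgl2, which had 84.4, 25.1 and 90.4 CPM against 825, 794 and 920 CPM (−3.34 ± 0.36), or for the chemokine gene Ccl6 (−2.79 ± 0.25). The nuclear RNA Malat1 had 12302, 9008 and 16143 CPM against 33088, 29288 and 35827 CPM. Members of the list such as H2-D1, Mxd1 and Slc2a3 did not pass, with log2 fold changes of −0.26, −0.09 and 0.64.

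Immediate early genes, which respond to stimulation and to cell handling, were lower in 9 of 13 tested and higher in none (median −1.11). Without mouse 1 or without mouse 2, 5 were lower. Fos, Junb, Jund and Dusp1 are also counted as lower in the list of mature genes above. Junb and Jund, subunits of the factor AP-1, fell by 1.76 and 1.95 on the log2 scale, and Fos by 1.11. Of 11 interferon genes 6 were lower and 2 higher, with 4 and 3 lower without mouse 1 and mouse 2. Ifitm1, an antiviral membrane protein, had 1063, 527 and 452 CPM in granule-rich cells and 6086, 5727 and 6079 CPM in the others (−2.75 ± 0.19). Its neighbour in the family, Ifitm3, went the other way with 1890, 1832 and 3075 CPM against 848, 983 and 1004 CPM (1.52 ± 0.17). Slfn4 was the second interferon gene that was higher (1.83 ± 0.20).

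Among 20 tested lineage transcription factors, Nfe2 and Klf5 were higher (1.75 ± 0.42 and 1.59 ± 0.60). In the same list 6 were lower (3 without mouse 1 or without mouse 2), including Cebpd (−0.68 ± 0.24) and Klf2 (−0.83 ± 0.24). Of these, Klf2, Klf6, Junb, Fos and Jun are also counted among the immediate early genes above, so their fall is no separate result. Cebpb did not pass (0.40 ± 0.57). Cebpe, the gene of C/EBP epsilon, was too rare for the test. Over the whole blood library it gave 19 UMIs in granule-rich cells, 118 CPM with an exact Poisson interval of 71 to 184 that covers counting error only, and 0 UMIs in the other cells. Against the floor of 3 counts over the other class it was at least 43.3-fold higher. The 19 UMIs were spread over 13 of the 79 cells. In tumor each class had 1 Cebpe UMI, which allows no comparison. Mpo, the primary granule gene myeloperoxidase, had 0 UMIs in both classes of both libraries. The proliferation gene Mki67 gave 4 UMIs in granule-rich and 5 in other blood cells, and 3 and 19 in tumor. These are raw counts from classes of 161070 against 1101553 UMIs in blood and 32689 against 620218 in tumor. Per UMI, Mki67 was therefore higher in granule-rich cells of both libraries, from few UMIs and without a test. Of 3 tested cell cycle genes Lmnb1 alone was lower and none higher.

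Metabolic and actin lists had smaller medians, between 0.32 and 0.62. Of 13 glycolysis and pentose phosphate genes 6 were higher, 13 of 27 actin genes were higher and 2 lower, and 6 of 33 respiratory chain genes were higher, whereas with totals alone these counts were 4 higher and 1 lower, 3 and 4, and 2 and 1. Without mouse 1 they were 2, 4 and 1 higher, without mouse 2 they were 4, 5 and 2 higher, and by DESeq2 2, 3 and 2. Tkt and G6pdx, enzymes of the pentose phosphate pathway that supplies the NADPH used by the oxidase, had the largest folds of the first list. Tkt had 861, 778 and 814 CPM in granule-rich cells against 187, 170 and 167 CPM (2.52 ± 0.25, edgeR's adjusted p = 2.51e-22), and G6pdx 473, 276 and 769 CPM against 161, 174 and 87.3 CPM (2.03 ± 0.33). Both were apart in all mice. Capg, which caps actin filaments, had 219, 201 and 181 CPM against 11.7, 14.5 and 3.64 CPM (4.52 ± 0.57). Ribosomal protein genes showed 1 higher and 1 lower of 39 (median −0.16), and genes of the endoplasmic reticulum 1 and 1 of 13.

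**Figure D3:**
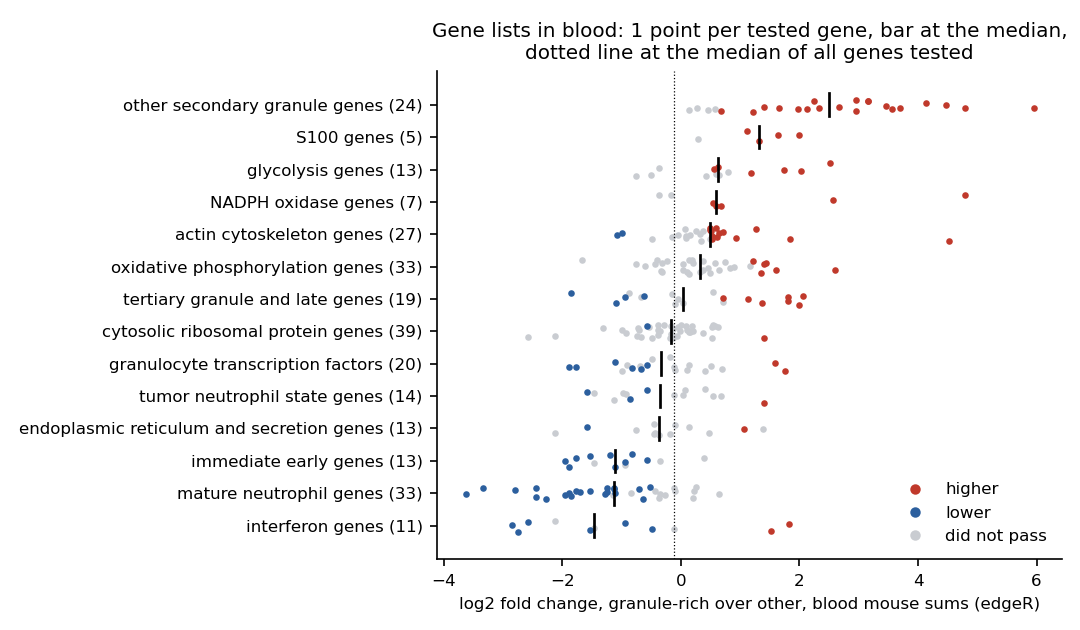
Log2 fold change of each tested gene between granule-rich and other blood cells (edgeR on 3 mice), by gene list, with the number tested in brackets, a bar at the list's median and a dotted line at the median of all 2015 genes (−0.11). Genes of the broad secondary granule list lie at a median of 2.50 and mature neutrophil genes at −1.13. The calls of the glycolysis, NADPH oxidase, actin and oxidative phosphorylation lists are fewer with library totals alone.

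Outside these lists the 10 genes with the largest fitted rise included Inhba, a subunit gene of the growth factor activin, with 321, 326 and 136 CPM in granule-rich cells against 2.92, 14.5 and 3.64 CPM (log2 fold change 5.50 ± 0.58, edgeR's adjusted p = 2.46e-19). The annexin gene Anxa3 had 287, 226 and 181 CPM against 11.7, 7.25 and 14.6 CPM (4.64 ± 0.55), and Ly6a2 996, 853 and 1040 CPM against 58.5, 43.5 and 18.2 CPM (4.82 ± 0.32). Mgst2, Acvrl1 and 4930438A08Rik completed the 10 with Serpinb1a, Cybb, Cd177 and Capg. Ly6c2 was also far higher, at 1502, 1782 and 1492 CPM against 161, 120 and 156 CPM (3.75 ± 0.20). Each rose in all 3 mice.

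The 10 genes with the largest fitted fall had 0 UMIs in the granule-rich mouse sums, so their fitted folds have no meaning as sizes. Over the whole blood library Tet2, a DNA demethylase, had 0 UMIs in granule-rich and 120 in other cells and was at least 5.85-fold lower. Ctss, cathepsin S, had 0 against 114 and was at least 5.56-fold lower. Swap70 had 1 against 163 UMIs (23.8-fold lower, interval 4.22 to 947) and Clec4n 1 against 119 (17.4-fold, 3.06 to 693). Zfp36l2 and Atp6v0a1 had 3 and 5 UMIs against 160 and 191. The others were B9d2, Parp9, 3110082I17Rik and AW011738. Hemoglobin transcripts also fell, Hbb-bs to 1789, 1355 and 1040 CPM against 9557, 13163 and 9081 CPM (−2.57 ± 0.17), and these were highest in barcodes of very few UMIs, as given above.

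The counts were smaller in subsets of the cells. In cells of at least 1000 UMIs, 117 genes were higher and 105 lower, with 18 of 21 secondary granule genes higher and 18 of 31 mature genes lower. Without barcodes that had 2 or more marker UMIs of another cell type, 20 were higher and 25 lower from 6, 2 and 4 granule-rich cells, and with Ly6c2 not counted as such a marker 175 and 203. Of the 513 genes called in the main fit, 347, 409 and 468 were tested again in these subsets, in that order. The call stayed for 218, 44 and 348 of them. The counts are therefore not over the same genes as in the main fit.

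The levels are also described by the amount of selecting RNA. That RNA chose the cells, so the steps below restate the choice and are no separate support. Kept barcodes were split by their UMIs of the 5 genes into 0, 1 to 2, 3 to 9, 10 to 49, 50 to under 200, and 200 or more, without regard to the class. In blood these held 1276, 156, 34, 25, 29 and 14 barcodes. Pooled Lcn2 stood at 694, 1647, 4128, 6903, 10971 and 15161 CPM over the 6 steps, and Cybb at 18.7, 78.7, 269, 647, 910 and 1434 CPM. Srgn stood at 5455, 4186, 2010, 1438, 571 and 152 CPM, so Lcn2 and Cybb were higher and Srgn lower at each step. Retnlg was highest in the middle, at 9505, 18837, 45642, 48634, 29167 and 11685 CPM. Cells with 1 or 2 UMIs of the 5 genes, which are outside the granule-rich class, already stood above those with 0 for Lcn2, Cybb and Retnlg.

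In tumor the steps held 843, 75, 7, 12, 6 and 4 barcodes, so the last 4 are small. Lcn2 went from 445 to 1046, 4190, 5718, 11975 and 18916 CPM. Cybb did not rise at each step as in blood, at 93.4, 76.9, 310, 329, 1067 and 2225 CPM. Srgn did not fall at each step, at 16400, 15297, 16605, 11238, 7351 and 3681 CPM. Cxcl2, a chemokine that attracts neutrophils, went from 33707 to 28286, 12104, 7886, 5810 and 257 CPM. Retnlg peaked in the middle here too, at 57440 CPM in cells with 10 to 49 UMIs, and ended at 12154 CPM. The median depth went along these steps from 562 to 3412 UMIs in tumor and from 611 to 3548 in blood. Its part in the trends was not tested, and as these are pooled values of single libraries they carry no test.

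**Figure D4:**
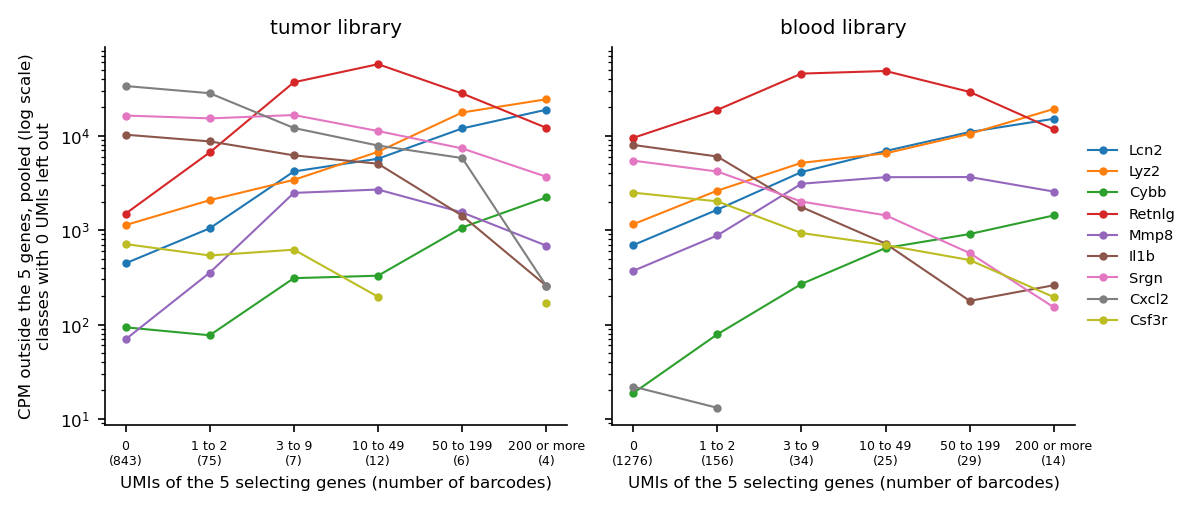
Pooled level (CPM outside the 5 genes, log axis) of 9 genes in kept barcodes grouped by their UMIs of the 5 selecting genes, with the number of barcodes in brackets, for the tumor and blood libraries. Lcn2 is highest and Srgn lowest in the last group of both panels, Retnlg is highest at 10 to 49 UMIs (57440 and 48634 CPM), and the last 4 tumor groups hold only 7, 12, 6 and 4 barcodes.

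The 20 tumor cells differed widely among themselves. Numbered by their UMIs of the 5 genes, members 1 to 8 had 487, 436, 375, 307, 153, 149, 138 and 101 of them. In these 8 cells Cxcl2 gave 0, 3, 0, 0, 0, 2, 1 and 1 UMIs, so it was at or near 0. Members 9, 14, 18 and 20, with 79, 31, 10 and 3 selecting UMIs, had 33, 33, 34 and 20 Cxcl2 UMIs. Over the 20 cells Cxcl2 ranged from 0 to 297 per 10000 UMIs with a median of 11.5, against a median of 206 in the other 927. Fth1, the ferritin heavy chain that stores iron, had 2 and 1 UMIs in members 1 and 4 (5.89 and 4.39 per 10000 UMIs outside the 5 genes), but 58 and 60 in members 2 and 3 (212 and 183 per 10000). Thus the cells with most granule transcripts were not alike in Fth1.

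Lcn2 was found in 19 of the 20, with a median of 96.6 per 10000 UMIs and a highest value of 239, and the median in other tumor cells was 0. Member 20, at the threshold with 3 selecting UMIs and several hashtags, had 0 UMIs of Lcn2 and Lyz2. Member 15 carried several hashtags and 29 of the 34 Cd74 UMIs of the class, Cd74 being the invariant chain of MHC class II. The remaining cells with several hashtags were members 2, 9 and 13.

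Pooled over the tumor library, granule-rich cells again had more granule RNA and less of the inflammatory RNA of their neighbours. With 1 library and 6 cells assigned to mice there is no test, and a gene is called here when its pooled level differs at least 2-fold with at least 20 UMIs in both classes together. Of 3345 genes with at least that many UMIs, 372 (11.1%) were higher and 705 (21.1%) lower. The whole 95% counting interval lay past 2-fold for 97 (2.9%) and 106 (3.17%). Secondary granule genes were higher in 19 and lower in 2 of 23 (median log2 ratio 2.90, 0 over all genes), and mature genes were higher in 1 and lower in 17 of 35 (median −0.97). All 5 S100 genes were higher, and 12 of 23 immediate early genes were lower with none higher. The list of inflammatory and metabolic genes picked earlier as high in this tumor library was lower in 35 of 40 and higher in none (median −2.39), and its choice on these cells makes this count no independent evidence.

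Lcn2 stood at 12359 CPM in granule-rich and 553 CPM in other tumor cells, a ratio of 22.3 (19.3 to 25.9). Lyz2 stood at 15816 against 1282 CPM (12.3, 11 to 13.8) and Cybb at 1162 against 96.7 CPM (12, 7.79 to 18.3). Retnlg was at 31295 against 2768 CPM (11.3, 10.5 to 12.2) and S100a8 at 152651 against 28600 CPM (5.34, 5.17 to 5.51). All 5 intervals lay above 2-fold. The largest ratios belonged to Cd177 (66.4, 25.9 to 201, from 21 and 6 UMIs), C130026I21Rik (47.4, 20 to 125), Ifitm6 (45.5, 36.3 to 57.3) and Ly6a2 (44.3, 16 to 141). Stfa3, a stefin that inhibits cysteine proteases (31.2, 15.4 to 65.5), Ly6c2 (28.7, 18.2 to 46.1) and the sort marker Ly6g (24.6, 12.5 to 49.2) came next, and St3gal5, Lcn2 and Ckap4 completed the 10.

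Cxcl2 was at 5292 CPM in granule-rich against 32769 CPM in other tumor cells, 6.19-fold lower (5.33 to 7.23). Il1b was at 2019 against 10069 CPM (4.99-fold lower, 3.91 to 6.46). The chemokine gene Ccl3 was at 642 against 7559 CPM (11.8-fold lower, 7.69 to 19) and Ccrl2, a chemokine-binding receptor, at 887 against 9900 CPM (11.2-fold lower, 7.76 to 16.7). Acod1, which makes itaconate, was at 398 against 3189 CPM (8.02-fold lower, 4.68 to 15.1), and Fth1 at 16672 against 41631 CPM. Cd14, a receptor for bacterial lipopolysaccharide, differed less, at 6944 against 11691 CPM (1.68-fold lower, 1.48 to 1.93). In tumor barcodes of 20 to 60 UMIs Cxcl2 stood at 16900 CPM, Ccl3 at 2375 CPM and Acod1 at 2005 CPM. Each was above the pooled granule-rich level. These values are shares of UMIs and do not give the amount of free RNA in a granule-rich barcode. The pooled level also hides differences between cells, as Cxcl2 was found in 14 of the 20, with up to 34 UMIs. The part of free RNA in the granule-rich counts was not tested.

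The smallest ratio was that of Ppp1r15a, a regulator of the stress response to misfolded proteins, with 1 UMI against 750 (39.5-fold lower, 7.07 to 1563). Tpi1, Maff, Nfe2l2 and Dnajb9 had 1, 1, 2 and 1 UMIs against 366, 357, 630 and 313, and Erbin, Gna13, Hmox1, Isg15 and Zfp292 also had 1 UMI each. In assigned cells 309 were higher (13.2%) and 244 lower (10.4%) of 2348 genes, after thinning 288 (15.1%) and 156 (8.18%) of 1907, and without barcodes with markers of another type, which leaves 4 granule-rich cells, 358 (15.2%) and 84 (3.57%) of 2355. In cells of at least 1000 UMIs, 120 were higher (9.45%) and 504 lower (39.7%) of 1270.

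Granule-rich cells of tumor and blood were within 2-fold for most secondary granule genes and far apart for single inflammatory genes. Between them 1106 genes were compared, without a test, and 151 (13.7%) were at least 2-fold higher and 256 (23.1%) lower in tumor. The whole counting interval lay past 2-fold for 50 (4.52%) and 9 (0.814%). Of 25 secondary granule genes 1 was higher and 3 lower (median log2 ratio −0.15, −0.22 over all genes). Lcn2 had 12359 CPM in the tumor and 10225 CPM in the blood cells (ratio 1.21, 1.08 to 1.35), Cybb at 1162 and 913 CPM (1.27, 0.867 to 1.83), Cd177 at 642 and 714 CPM (0.9, 0.537 to 1.44) and Ly6c2 at 1530 and 1714 CPM (0.893, 0.647 to 1.21). These ratios all lay within 2-fold, intervals included. The intervals cover counting error only and not the spread between cells or mice, and Cybb was found in 11 of the 20 tumor cells. Among the other cells of the 2 libraries, 5 of 26 secondary granule genes were higher and 14 lower in tumor, with a median of −1.25. Over all 5541 genes compared there, 24.9% were higher and 25.9% lower, with a median of −0.0782.

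The inflammatory and metabolic genes of that list were picked as high in the tumor library, and several reach 20 UMIs only through the tumor cells, so no count over them is read here and single genes are given as values. Cxcl2 had 173 UMIs in the tumor and 0 in the blood granule-rich cells, at least 284-fold higher against a floor of 3 counts over the class. Ccrl2 and Ccl3 had 29 and 21 UMIs against 0, at least 47.6-fold and 34.5-fold higher. Fth1 was at 16672 and 1757 CPM (ratio 9.49, 8.2 to 11) and Cd14 at 6944 and 410 CPM (16.9, 12.8 to 22.6). G0s2, an inhibitor of fat breakdown, was at 3120 and 99.3 CPM (31.4, 18.4 to 57), and Il1r2, the decoy receptor for interleukin 1, at 1897 and 74.5 CPM (25.5, 13.6 to 51.9). For G0s2 the level in tumor granule-rich cells was also above the 1159 CPM of other tumor cells and the 288 CPM of the barcodes of 20 to 60 UMIs. For Cxcl2, Ccrl2, Ccl3 and Il1r2 it was below that of other tumor cells, and free RNA of this library held them too. The part of free RNA in these counts was not tested.

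Cd74 also had 34 UMIs against 0, but 29 of them came from member 15. Spag9, Ets2 and Tgoln1 completed the 10 largest ratios, at 30.8, 19.7 and 14.8. Of 29 cytosolic ribosomal protein genes 16 were higher in tumor and none lower (median 1.12). Among other cells 20 of 63 were higher and 1 lower (0.83), beside 24.9% and 25.9% of all genes compared there. The 10 smallest ratios held Hbb-bs, with 0 UMIs in tumor against 229 in blood, the signalling genes Fgr (9.13-fold lower, 1.56 to 369) and Ptpre (10.6-fold, 1.81 to 425), and Il6ra, Hk3, Pi16, Hba-a1, Gm1966, Fcho2 and Ralb. After thinning, 17 genes were higher (12.1%) and 25 lower (17.7%) of only 141 with enough UMIs, and without barcodes with markers of another type 26 (18.6%) and 21 (15%) of 140.

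**Figure D5:**
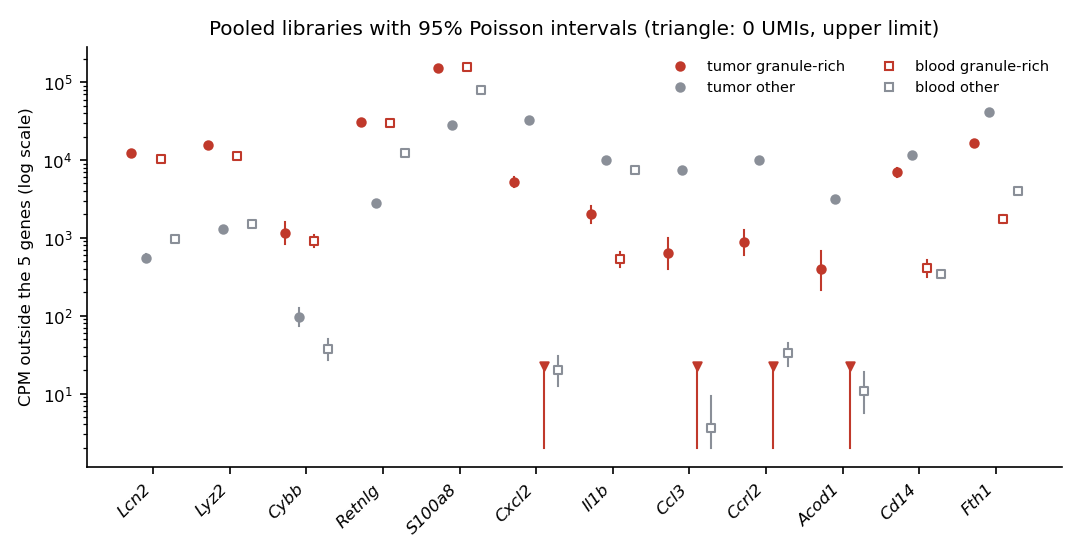
Pooled level (CPM outside the 5 genes, log axis) of 12 genes in granule-rich (red) and other (grey) cells of the tumor (filled) and blood (open) libraries, with exact 95% Poisson intervals and triangles for 0 UMIs. Lcn2, Lyz2, Cybb, Retnlg and S100a8 lie within 2-fold between the red symbols of the 2 tissues, whereas Cxcl2, Ccl3, Ccrl2 and Acod1 were counted in tumor and at 0 UMIs in blood granule-rich cells.

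Genes whose level followed that of the 5 selecting genes most closely were looked up over 9 sums, the 6 of blood and the 3 of other tumor cells, since the granule-rich tumor sums were too small. Among 1003 genes with at least 200 UMIs, Pearson's r of log2 CPM was highest for Dstn (0.989), Lyz2 (0.978), Prdx5 (0.978), Plbd1 (0.975) and Lcn2 (0.972). Fpr2, Aldh2, Slfn4, Ifitm6 and Sem1 followed at 0.962, 0.948, 0.946, 0.93 and 0.924. Since 3 of the 9 sums were chosen for the 5 genes and the sums share 2 libraries, the values are descriptions.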

How the data were processed

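Neutrophil RNA and hashtags were counted by Drop-seq in tumor and blood of 3 mice. The authors deposited raw UMI counts per gene and barcode (15901 genes in tumor, 15236 in blood, 10000 barcodes each) and raw hashtag counts. The submitters' processing notes name STAR and mm10 but no version. For the counting tool and its annotation: not given in the sources used here. Members, gene lists and tests were chosen with earlier results of these data known, and the list of inflammatory genes came from such results.

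Mice were assigned with HTODemux (Seurat 5.3.0, 4 centres, quantile 0.99). The only doublet control was the hashtags: cells with several stayed in pooled values and left the test. Whether a hashtag marks the same animal in both tissues is not given. UMIs outside the 5 genes were summed by mouse and class and fitted with edgeR 4.0.16 (R 4.3.3; quasi-likelihood, TMM, default low-count filter, mouse as block, Benjamini-Hochberg adjustment). The block rests on both classes coming from the same animals; own-mouse deviations correlated at −0.00208, 0.0422 and 0.0653. A mouse needed 10 granule-rich cells and 2000 UMIs, which no tumor mouse reached (1 of 3 under the 70% hashtag rule, with 13 cells and 23131 UMIs), so planned tumor fits were not run. Blood sums held 59258, 39853 and 22115 granule-rich and 341933, 275706 and 274874 other UMIs. Pooled values have exact Poisson or binomial intervals. On simulated counts of 1850 genes the fit called 36 of 92 changed 2-fold (39.1%), 76 of 89 changed 4-fold (85.4%) and 6 of 1669 unchanged (0.359%). Both simulated classes started from the levels of other cells, with as many genes raised as lowered. The simulation therefore does not cover error from the scaling. Named genes were the 10 largest and 10 smallest folds per comparison, the most abundant and extreme members of each list, and a preset set of neutrophil genes. Alternatives covered DESeq2 1.42.0, scaling, filter, block, left-out mice, hashtag rule, selection thresholds, depth and other cell types; those on cells of at least 1000 UMIs, on totals alone, with Ly6c2 not counted as a marker and without barcodes of under 1.1 UMIs per gene were added after seeing the data.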

Additional observations from a re-analysis of the deposited data

Results flagged for a closer look

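For 6 genes the ratio of granule-rich to other cells lay on opposite sides of 1 in the 2 libraries, with both counting intervals clear of 1. The difference between the tissues was not tested. Inhba had a ratio of 0.105 in tumor (0.0126 to 0.381, from 2 and 362 UMIs) and 35.7 in blood (17.3 to 82.9). Cd63, a granule and lysosome membrane protein, had 0.327 in tumor (0.156 to 0.605) and 2.07 in blood (1.31 to 3.16). Hp, haptoglobin, had 3.42 in tumor (2.55 to 4.53) and 0.847 in blood (0.76 to 0.941). Tmsb4x, which binds actin monomers, had 2.31 in tumor (2.1 to 2.54) and 0.956 in blood (0.92 to 0.994). Lcp1, which bundles actin, had 1.62 (1.22 to 2.12) and 0.715 (0.642 to 0.794), and Ifitm2 had 1.48 (1.16 to 1.85) and 0.633 (0.564 to 0.709). The intervals cover counting error only, and in the blood fit over mice Hp, Tmsb4x and Lcp1 did not pass. With the scaling of that fit Hp and Tmsb4x had log2 fold changes of 0.14 and 0.25, the same side as in tumor, so their blood direction turns with the scaling.

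Barcodes with 20 to 60 UMIs, which no test and no class used, also held selecting transcripts. In tumor they had 54 Camp, 94 Ngp and 47 Ltf UMIs, and in blood 157, 136 and 51. These counts are above the 3 that a count of 0 allows.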

How the results depend on the processing

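Of 919 refitted blood values of 60 named genes, 843 passed or did not pass as in the main fit, 69 lost the call and 4 gained it. A change of direction was counted only for genes called in the main fit, where 3 values reversed. Cyba went to −0.08 without barcodes with markers of another cell type. Actb went to −0.11 without the low-count filter and to −0.36 without those barcodes. The cause was not tested. Of the pooled values of 25 genes, 165 stayed close, 61 moved and 0 changed sign after a call.

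Blood genes higher and lower (246 and 267) were 131 and 94 by DESeq2, 108 and 449 without the filter, 59 and 78 after thinning (942 genes tested), 20 and 25 without barcodes with markers of another type, 117 and 105 in cells of at least 1000 UMIs, and 461 were lower with totals alone. Leaving out 1 mouse gave 137 to 257 higher and 132 to 204 lower. Without the replicate block 260 and 294 were called, and 502 of the 513 calls of the blocked fit stayed. By comparison 225 stayed by DESeq2, 249 without mouse 1, 135 after thinning and 44 under marker exclusion. Of the 513, all tested again kept their direction except under no filter (501 of 513), thinning (332 of 340) and marker exclusion (377 of 409).

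Pooled tumor calls moved to 120 higher (at least 1000 UMIs, 1270 genes, 504 lower) and to 244 (assigned cells, 2348 genes), 156 (thinned, 1907) and 84 (marker exclusion, 2355) lower. Tumor against blood moved to 17 and 26 higher (thinned, 141 genes; marker exclusion, 140) and to 109 (assigned, 736), 25 (thinned), 157 (Ly6c2 not counted, 783) and 21 (marker exclusion) lower, so fewer genes were tested in each. Pooled over the blood library, 421 genes were higher and 1216 lower, and moved to 260 and 582 at 1000 UMIs, 542 lower after thinning and 505 lower under marker exclusion. Granule-rich shares became 4.17% and 7.59% with at least 300 genes and 1.31% and 4.02% with 100, and ran from 0.796% to 1.44% in tumor and 3.96% to 5.68% in blood with 1 mouse left out. Without the 2 barcodes of nearly 1 UMI per gene every pooled count stayed within 1.5 times. Under the 70% hashtag rule 94.8% of granule-rich blood and 85% of tumor cells were assigned, and 15% of tumor cells had no call.

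Depth limits the tumor cells most, with 32689 UMIs in 20 cells. The fits planned for tumor and between tissues with edgeR, DESeq2, other scaling, no filter, the replicate block, left-out mice and the 70% rule were not run, since the size minimum was not reached.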
